A study of Mus musculus with 30 samples.

Results

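Transcription factors of the primitive streak and of its anterior end, the organizer, were followed in mouse epiblast stem cells (EpiSC) and in definitive endoderm (DE) made from them. The set was a fixed list of 9 genes out of the 29555 gene identifiers counted in the deposited tables: Gsc, Lhx1, Otx2, Mixl1, Evx1, Eomes, T, Tbx6 and Mesp1. Expression was measured by poly(A) RNA-seq and open chromatin by ATAC-seq, which counts the insertions of a transposase, and a peak was taken as near a gene when it overlapped it or lay within 20 kb of either end. RNA-seq was available for 5 C57BL/6 EpiSC, 4 C57BL/6 DE, 3 PWK/PhJ EpiSC, 3 B6.129 F1 EpiSC and 1 DBA/2J EpiSC library, and ATAC-seq for 4 C57BL/6 EpiSC, 4 C57BL/6 DE, 2 PWK/PhJ EpiSC and 1 DBA/2J EpiSC library. All samples carried the labels passage p5-p10 and treatment none. EpiSC were kept on feeder cells in an N2B27-based medium that held Fgf2, ActivinA and the Wnt inhibitor NVP-TNKS656, and were detached with collagenase, a step meant to leave feeders behind. For DE, EpiSC received CHIR99201 with ActivinA for 16 h and then ActivinA with LDN193189 for 24 h, although the same label gives 46 h in all, and cells with CXCR4 on their surface were taken by magnetic sorting. EpiSC were not sorted, so sorting and differentiation cannot be told apart. Samples are called biological replicates in their titles, but nothing says that they came from separate cultures, so the p-values measure the spread between these samples alone.

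The primitive streak forms in the posterior epiblast under Nodal, Wnt and Bmp signals, and cells that pass through it become mesoderm or definitive endoderm. Its posterior part gives rise mostly to mesoderm and is marked by T-box factors such as T and Tbx6 and by Evx1 and Mesp1, whereas its anterior end, which makes definitive endoderm and the axial midline, is marked by the homeodomain factors Gsc and Lhx1. Eomes and Mixl1 act in both routes and are needed for endoderm, and Otx2 is made in the epiblast and again in anterior mesendoderm.

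EpiSC RNA libraries held 24529054 to 29947841 counts, and the DE libraries 22829536 and 25410448 in replicates 2 and 44 against 59995667 and 66563933 in replicates 4 and 51. ATAC-seq libraries held 3751526 to 9571127 counts in peaks. The cell identities were checked with marker lists, of 10 genes each unless another number is given. All 10 DE markers rose in DE, Sox17 from 5.82 ± 4.43 CPM (SD, n = 5) to 1301 ± 145 CPM (SD, n = 4). Cxcr4 is among these 10, and DE was sorted for its protein, so its rise is not an independent check. Of the 10 EpiSC markers, 7 fell, Pou5f1 from 1127 ± 175 to 12.9 ± 16.7 CPM, while 1 rose and 2 were not called (edgeR). The EpiSC markers summed to 3549 to 4907 CPM in EpiSC and to 2735 to 3626 CPM in DE, and these ranges overlapped. CPM are counts relative to library size, after TMM scaling of the sizes. Visceral endoderm shares many DE markers, and the 8 markers listed for it summed to 2.67 to 15.1 CPM in EpiSC and to 33.0 to 120 CPM in DE, without overlap. Of these, 6 were tested, and Apoa1, Amn and Spink1 rose while none fell (edgeR), with Spink1 at 59.9 ± 34.8 CPM in DE. Its markers Ttr and Afp were at 0.0254 and 0.0763 CPM on average in DE. The 10 feeder fibroblast markers summed to 59.6 to 2487 CPM in C57BL/6 EpiSC and to 80.6 to 264 CPM in DE, and 7 of them fell. The 10 markers of paraxial and lateral mesoderm summed to 13.7 to 21.4 CPM in EpiSC and to 31.2 to 76.6 CPM in DE, without overlap. Of 7 tested, 2 were higher and 3 lower in DE (edgeR), or 28.6% and 42.9%. Among all genes tested, 31.5% were higher and 30.6% lower. The part of the visceral endoderm, feeder and mesoderm lists in the results below was not tested. In these bulk samples, fewer cells of a type and less RNA per cell cannot be told apart.

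Between C57BL/6 EpiSC and DE, 8 of the 9 factors could be tested and all 8 passed the threshold of an adjusted p of 0.05 (edgeR quasi-likelihood test, Benjamini-Hochberg over 14085 genes). Gsc, Lhx1, Otx2, Mixl1, Evx1 and Eomes rose and T and Tbx6 fell, and in each of the 8 the EpiSC and DE libraries did not overlap. Over all genes tested, 8737 were called, 31.5% higher and 30.6% lower, and 55.6% had groups that did not overlap. The median log2 change of the 8 factors was 1.83, against -0.01 over all genes tested. These fits were unpaired. A fit with the replicate number as a block held only libraries with a number in both groups, which left out EpiSC replicate 1. In that fit the calls of Evx1 and Tbx6 were lost (edgeR, adjusted p = 0.0992 and 0.160) and Lhx1 had a log2 change of 5.25. Unblocked and without EpiSC replicate 1, Lhx1 had a log2 change of 4.63. Tbx6 lost its call there as well, and Evx1 kept it. In chromatin, 73 of the 83 nearby peaks could be tested, of which 31 were higher and 5 lower in DE, and 36 had groups that did not overlap. Over all 113870 peaks tested, 57.6% were called, 32.6% higher and 25.0% lower, and 53.8% did not overlap. The median log2 change of the nearby peaks was 0.52, against -0.01 over all peaks. The count of lower peaks depended on the libraries, with 8 without EpiSC replicate 44, 8 without EpiSC replicate 51 and 11 without DE replicate 2. With total library sizes in place of TMM the median of all peaks was -0.22 and the nearby peaks gave 26 higher and 10 lower.

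**Figure D1:**
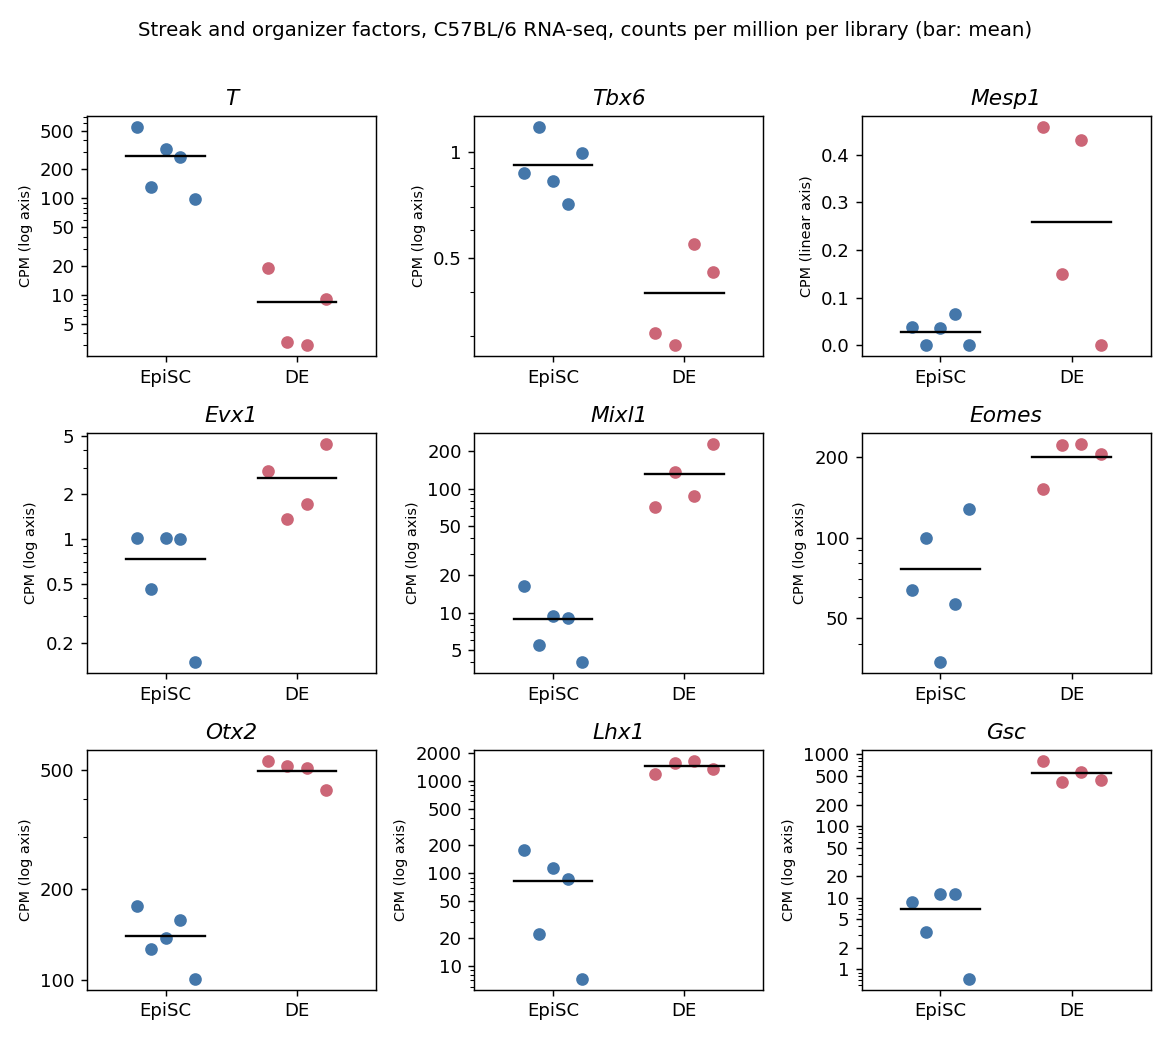
CPM of the 9 factors in each C57BL/6 EpiSC (blue, 5 libraries) and DE (red, 4 libraries) RNA-seq library, on log axes except for Mesp1, with bars at the group means. Gsc lies between 0.739 and 11.4 CPM in EpiSC and between 414 and 822 CPM in DE, T runs the other way, and Mesp1 is at most at 0.458 CPM.

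Gsc encodes a homeodomain repressor that marks the organizer and the anterior streak. Its level was 8.76, 3.28, 11.1, 11.4 and 0.739 CPM in EpiSC replicates 1, 2, 4, 44 and 51, and 822, 414, 564 and 435 CPM in DE replicates 2, 4, 44 and 51. All DE libraries were far above all EpiSC libraries, and EpiSC replicate 51 was the lowest. The means were 7.06 ± 4.81 CPM (SD, n = 5) and 559 ± 188 CPM (SD, n = 4). The rise was 79.0-fold (log2 change 6.30, SE 0.59, adjusted p = 3.18e-05), and 0.561% of the genes tested had a larger log2 change.

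Chromatin near Gsc opened over the gene start and on both sides of it. The RefSeq promoter window of Gsc, chr12:104473187-104473486 on the minus strand (GRCm38.p6, 250 bases before to 50 bases after the start), is shown because a peak that rose covers most of it. The sequence reads 5′ to 3′ along the gene, and the 214 bases in capitals lie inside the peak chr12:104473249-104473462.
Gsc: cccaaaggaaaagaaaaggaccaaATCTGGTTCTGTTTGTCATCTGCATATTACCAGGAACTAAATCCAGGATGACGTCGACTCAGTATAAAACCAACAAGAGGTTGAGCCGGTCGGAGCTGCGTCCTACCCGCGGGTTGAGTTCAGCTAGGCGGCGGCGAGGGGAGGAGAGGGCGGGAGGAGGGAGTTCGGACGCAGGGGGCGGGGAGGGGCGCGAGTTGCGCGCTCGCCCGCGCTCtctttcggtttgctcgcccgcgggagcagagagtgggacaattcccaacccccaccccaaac
The counts of that peak were 5.92, 6.21, 5.87 and 7.59 CPM in EpiSC replicates 1, 4, 44 and 51 and 19.6, 18.3, 18.0 and 20.8 CPM in DE replicates 2, 4, 44 and 51. The groups were well apart, with a log2 change of 1.57 (SE 0.22, adjusted p = 3.59e-06). The same region lies beside the gene model Gm10000. Peak coordinates here and below are those of the peak names, in mm10, and the numbering base of their starts is not given.

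The nearby peak with the smallest p was chr12:104492144-104492570, 18908 bp upstream of Gsc. It rose from 2.88, 4.51, 3.32 and 0.775 CPM in the EpiSC libraries to 49.2, 49.7, 43.7 and 40.6 CPM in the DE libraries. This is a log2 change of 3.95 (SE 0.28, adjusted p = 1.43e-09), and the lowest DE library was well above the highest EpiSC library. The peak with the highest mean, chr12:104467011-104467346, 3863 bp downstream, rose from 14.5 ± 4.65 to 46.1 ± 3.96 CPM (SD, n = 4 each), a log2 change of 1.65 (SE 0.19, adjusted p = 3.25e-07). In all, 6 of the 7 tested peaks near Gsc were higher and none was lower (edgeR, median log2 change 1.65).

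Lhx1 encodes a LIM homeodomain factor of the anterior streak and its mesendoderm, which the embryo needs to form a head. Its level was 181, 22.1, 114, 87.3 and 7.28 CPM in the 5 EpiSC libraries and 1185, 1539, 1651 and 1334 CPM in the 4 DE libraries. The EpiSC libraries spread over 24.9-fold from replicate 51 to replicate 1, while the DE libraries spread over 1.39-fold and lay above all of them. The mean rose from 82.3 ± 70.7 CPM (SD, n = 5) to 1427 ± 208 CPM (SD, n = 4), 17.3-fold (log2 change 4.12, SE 0.69, adjusted p = 0.000808). Lhx1 lies beside the antisense gene Lhx1os, and since it is not stated whether strand was used in counting, reads from the pair cannot be told apart. The same holds for Evx1 with Evx1os and for Otx2 with Otx2os1.

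The start of Lhx1 was already in a peak in EpiSC. Its promoter window, chr11:84525485-84525784 on the minus strand, is printed with the 228 bases inside the peak chr11:84525428-84525712 in capitals.
Lhx1: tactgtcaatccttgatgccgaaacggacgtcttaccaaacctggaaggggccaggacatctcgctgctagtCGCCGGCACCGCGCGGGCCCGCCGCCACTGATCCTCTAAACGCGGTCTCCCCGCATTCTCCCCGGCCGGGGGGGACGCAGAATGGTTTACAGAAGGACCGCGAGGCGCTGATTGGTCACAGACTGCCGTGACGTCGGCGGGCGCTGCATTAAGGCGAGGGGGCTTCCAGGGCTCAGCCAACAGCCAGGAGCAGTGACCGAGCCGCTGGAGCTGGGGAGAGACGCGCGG
The peak counts were 17.1, 19.2, 17.1 and 15.6 CPM in EpiSC and 43.0, 41.3, 46.4 and 37.2 CPM in DE. The rise was uniform over libraries, with a log2 change of 1.28 (SE 0.15, adjusted p = 5.44e-07). A peak 4360 bp upstream, chr11:84529894-84530131, went from 0.800, 1.80, 0.510 and 0.620 CPM to 21.6, 22.9, 25.0 and 14.1 CPM. At a log2 change of 4.31 (SE 0.38, adjusted p = 3.66e-09) this was the largest rise among all nearby peaks of the 9 genes in DE. The peak next to it, chr11:84530302-84530606, had the highest mean near Lhx1 and rose from 19.9 ± 2.21 to 68.0 ± 17.5 CPM (SD, n = 4 each). Of the 8 peaks tested near Lhx1, 6 were higher and none was lower (edgeR, median log2 change 1.62).

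**Figure D2:**
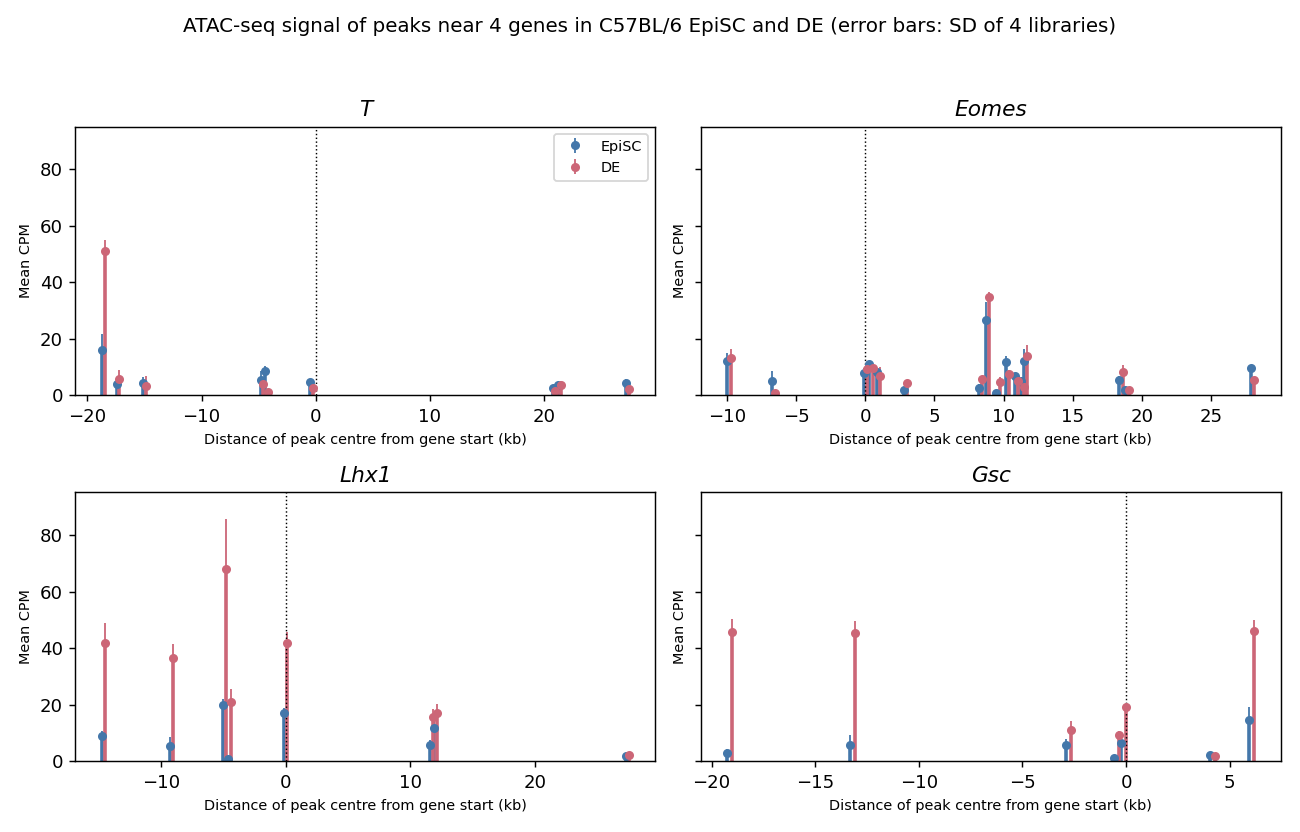
Mean ATAC-seq CPM of each tested peak near T, Eomes, Lhx1 and Gsc against the distance of its centre from the gene start in kb (negative is upstream along the gene), in C57BL/6 EpiSC (blue) and DE (red), with the SD of 4 libraries. Near Gsc and Lhx1 6 peaks each are higher in DE and none is lower by the test, near Eomes 3 are higher and 3 lower, and the tall DE bar in the plot of T stands 18346 bp upstream of the gene.

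Otx2 encodes a bicoid-class homeodomain factor of the epiblast and of anterior tissue. It was at 176, 126, 138, 159 and 101 CPM in EpiSC and at 539, 517, 509 and 431 CPM in DE. Replicates of each state were close to each other, and the states did not overlap. The mean rose from 140.0 ± 29.2 CPM (SD, n = 5) to 499 ± 47.1 CPM (SD, n = 4), 3.57-fold (log2 change 1.83, SE 0.17, adjusted p = 1.05e-05). RefSeq lists 4 promoter windows for Otx2, and the innermost one is shown because it holds the edge of the peak near Otx2 with the smallest p. The window is chr14:48662685-48662984 on the minus strand, and the 58 bases in capitals lie inside the peak chr14:48662927-48663126.
Otx2: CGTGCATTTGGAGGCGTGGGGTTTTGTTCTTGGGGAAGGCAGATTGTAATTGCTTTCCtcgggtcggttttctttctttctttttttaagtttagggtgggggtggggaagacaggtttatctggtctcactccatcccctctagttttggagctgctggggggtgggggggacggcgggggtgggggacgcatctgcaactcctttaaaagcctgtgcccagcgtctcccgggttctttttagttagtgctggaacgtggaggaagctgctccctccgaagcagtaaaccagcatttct
That peak was at 2.88, 4.31, 1.02 and 2.17 CPM in EpiSC and at 15.2, 7.90, 13.9 and 15.6 CPM in DE, with DE replicate 4 the lowest of its group and no overlap. The log2 change was 2.23 (SE 0.35, adjusted p = 1.32e-05). The peak at an outer start, chr14:48667517-48667592, changed by a log2 value of 0.94 (SE 0.53) that did not pass the test (adjusted p = 0.126), and the peak with the highest mean, chr14:48654879-48655237, by 0.13 (SE 0.21, adjusted p = 0.622). Near Otx2, 3 of 6 tested peaks were higher and none was lower (edgeR).

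Mixl1 encodes a paired-type homeodomain factor of the streak that acts in endoderm formation. Its level was 16.3, 5.52, 9.46, 9.06 and 4.03 CPM in EpiSC and 71.4, 135, 87.3 and 229 CPM in DE. Every DE library was above every EpiSC library, and the 2 deeply sequenced DE libraries, replicates 4 and 51, held the higher DE values. Whether their depth has a part in that was not tested. The mean rose from 8.88 ± 4.75 CPM (SD, n = 5) to 131 ± 71.0 CPM (SD, n = 4), 14.7-fold (log2 change 3.88, SE 0.43, adjusted p = 5.22e-05). With DE replicates 2 and 44 alone, an alternative chosen after the data were seen, the log2 change was 3.12.

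Peaks near Mixl1 had the highest median log2 change of the 9 genes, 2.45, with 6 of 7 tested peaks higher and none lower (edgeR). The peak chr1:180715295-180715479, 18261 bp from the gene, rose from 2.88, 1.90, 3.57 and 0.930 CPM in EpiSC to 17.3, 20.1, 19.2 and 23.9 CPM in DE (log2 change 3.17, SE 0.31, adjusted p = 4.39e-08). The tallest on average, chr1:180714202-180714458, stood 17168 bp from the gene and rose from 5.03 ± 1.97 to 27.6 ± 7.74 CPM (SD, n = 4 each). A peak 363 bp from the gene, chr1:180697397-180697674, which was chosen after its values were seen, rose from 6.24 ± 2.42 to 19.6 ± 2.82 CPM (log2 change 1.68, SE 0.26, adjusted p = 1.35e-05). In each of these 3 peaks the groups did not overlap. The remaining tested peak, chr1:180696619-180696788 inside the gene, was at 4.98 ± 1.27 CPM in EpiSC and 3.44 ± 1.38 CPM in DE and did not pass the test (log2 change -0.55, adjusted p = 0.214).

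Evx1 encodes a homeodomain factor of the posterior streak. Its transcript was scarce, at 1.02, 0.457, 1.01, 1.00 and 0.148 CPM in EpiSC and 2.90, 1.38, 1.72 and 4.40 CPM in DE, which are 4 to 31 counts per EpiSC library and 44 to 290 counts per DE library. The groups were close but did not overlap, and the mean rose from 0.729 ± 0.404 CPM (SD, n = 5) to 2.60 ± 1.37 CPM (SD, n = 4), 3.55-fold (log2 change 1.83, SE 0.61, adjusted p = 0.0233). The call was lost without EpiSC replicate 2 (adjusted p = 0.0529) and without DE replicate 51 (adjusted p = 0.0761). It was also lost with the replicate number as a block in edgeR (adjusted p = 0.0992). Chromatin near Evx1 moved more: the peak chr6:52326912-52327111, 8523 bp downstream, rose from 1.60, 2.40, 1.53 and 1.86 CPM to 24.9, 26.7, 27.0 and 18.7 CPM (log2 change 3.66, SE 0.27, adjusted p = 1.02e-09). The peak over the start, chr6:52313467-52313571, was at 2.08, 1.10, 1.02 and 0.930 CPM in EpiSC and 5.15, 2.47, 1.86 and 3.17 CPM in DE. These groups overlapped, and the log2 change of 1.26 (SE 0.50, adjusted p = 0.0326) was no longer called when any one of 6 of the 8 libraries was dropped (adjusted p 0.0288 to 0.230). Near Evx1, 4 of 6 tested peaks were higher and none was lower (edgeR).

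Eomes encodes a T-box factor that starts the endoderm programme in the streak. Its level was 63.8, 100.02, 34.2, 56.5 and 128 CPM in EpiSC and 152, 223, 225 and 205 CPM in DE. EpiSC replicate 51, the lowest of its group for Gsc and Lhx1, was the highest for Eomes, and DE lay above EpiSC throughout. The mean rose from 76.4 ± 37.1 CPM (SD, n = 5) to 201 ± 33.7 CPM (SD, n = 4), 2.63-fold (log2 change 1.40, SE 0.33, adjusted p = 0.00391). The promoter window, chr9:118477939-118478238 on the plus strand, is shown as a start whose peak did not pass the test. Its capitals are the 128 bases inside the peak chr9:118478111-118478273.
Eomes: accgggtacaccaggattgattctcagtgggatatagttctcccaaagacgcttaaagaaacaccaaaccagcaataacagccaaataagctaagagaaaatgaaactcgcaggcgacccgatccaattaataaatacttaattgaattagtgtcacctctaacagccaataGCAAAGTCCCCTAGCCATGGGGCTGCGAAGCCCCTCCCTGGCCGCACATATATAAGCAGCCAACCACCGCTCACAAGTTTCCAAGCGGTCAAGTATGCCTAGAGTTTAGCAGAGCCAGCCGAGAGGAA
The start peak was at 5.60, 7.21, 9.18 and 9.30 CPM in EpiSC and 11.1, 7.57, 11.4 and 7.49 CPM in DE, and the groups overlapped (log2 change 0.29, SE 0.27, adjusted p = 0.377).

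The 16 tested peaks near Eomes split evenly, with 3 higher and 3 lower in DE (edgeR, median log2 change 0.07). The one with the smallest p, chr9:118487741-118487820, 1609 bp downstream, rose from 0.960, 1.60, 0.255 and 0.620 CPM to 7.0, 2.96, 4.87 and 4.32 CPM (log2 change 2.31, SE 0.51, adjusted p = 0.00038). The tallest on average, chr9:118486893-118487192, was at 26.8 ± 6.28 CPM in EpiSC and 34.7 ± 1.65 CPM in DE (SD, n = 4 each, adjusted p = 0.0588). The 3 lower peaks were chr9:118471475-118471662 upstream (log2 change -2.38, adjusted p = 0.00151) and chr9:118488381-118488551 and chr9:118506059-118506242 downstream (log2 changes -0.61 and -0.85, adjusted p = 0.0477 and 0.0102), and they are named because they fell, after their values were seen. Eomes thus had a higher transcript beside chromatin that moved both ways.

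T encodes Brachyury, the T-box factor of posterior streak, mesoderm and notochord, and it fell the most of the 9 genes. Its level was 548, 131, 328, 266 and 99.5 CPM in EpiSC and 18.8, 3.22, 3.01 and 9.01 CPM in DE. The lowest EpiSC library was well above the highest DE library, replicate 2. The mean dropped from 274 ± 179.5 CPM (SD, n = 5) to 8.52 ± 7.41 CPM (SD, n = 4), 32.5-fold lower (log2 change -5.02, SE 0.62, adjusted p = 0.000237). Without DE replicate 2 the log2 change was -5.73. The promoter window of T, chr17:8434173-8434472 on the plus strand, had a peak in the set called for the EpiSC table, and the 70 bases inside that peak, chr17:8434000-8434242, are in capitals.
T: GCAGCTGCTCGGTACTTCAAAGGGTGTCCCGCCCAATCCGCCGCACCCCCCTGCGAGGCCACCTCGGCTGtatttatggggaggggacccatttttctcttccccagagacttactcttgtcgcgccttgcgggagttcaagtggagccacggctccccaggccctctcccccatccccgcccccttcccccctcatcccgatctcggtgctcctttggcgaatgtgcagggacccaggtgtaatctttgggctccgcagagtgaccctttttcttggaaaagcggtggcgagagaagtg

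Near T, 1 of 9 tested peaks was higher and 1 lower (edgeR, median log2 change -0.46). The lower one, chr17:8430040-8430241, 4182 bp upstream, was named after its values were seen and fell from 9.44, 7.01, 6.89 and 10.8 CPM to 1.03, 1.48, 1.14 and 0.577 CPM (log2 change -2.93, SE 0.40, adjusted p = 1.6e-06). The peak with the smallest p, chr17:8415526-8416077, 18346 bp upstream, went the other way, from 21.3, 20.8, 11.5 and 11.3 CPM to 56.4, 51.0, 47.1 and 50.2 CPM (log2 change 1.63, SE 0.19, adjusted p = 5.43e-07). It lies also near the gene T2 and the model Gm34036, so nearness to T is shared. Both pairs of groups were apart, and the transcript of T went down while this distant peak went up. The tested peak nearest the start of T, chr17:8434031-8434153, 270 bp upstream, was picked after its values were seen. It was at 4.60 ± 1.38 CPM in EpiSC and 2.63 ± 1.13 CPM in DE (SD, n = 4 each). The groups overlapped, and it did not pass the test (edgeR, log2 change -0.86, SE 0.41, adjusted p = 0.0752).

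Tbx6 encodes a T-box factor of paraxial mesoderm. It was at 0.872, 1.18, 0.830, 0.712 and 0.998 CPM in EpiSC and at 0.305, 0.282, 0.548 and 0.455 CPM in DE, from 6 to 31 counts per library over both states. The groups did not overlap, and the mean fell from 0.919 ± 0.179 CPM (SD, n = 5) to 0.397 ± 0.126 CPM (SD, n = 4), 2.30-fold lower (log2 change -1.20, SE 0.45, adjusted p = 0.0399). Dropping any one of 8 of the 9 libraries ended the call (adjusted p 0.0364 to 0.102), while it held without DE replicate 44. With the replicate number as a block in edgeR the call was lost too (adjusted p = 0.160). Near Tbx6, 1 of 7 tested peaks was higher and 1 lower (edgeR). The higher one, chr7:126776624-126776998, rose from 22.3 ± 2.88 to 37.6 ± 5.05 CPM (log2 change 0.77, SE 0.16, adjusted p = 0.000305) and lies near Gdpd3 and Ypel3 as well. The tallest on average, chr7:126799048-126799383, near Aldoa, did not pass the test (log2 change 0.15, adjusted p = 0.389).

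Mesp1 encodes a basic helix-loop-helix factor of nascent mesoderm and the heart lineage. Too few reads were counted for a test: 1, 0, 1, 2 and 0 counts in EpiSC and 9, 9, 11 and 0 counts in DE. DE replicate 51, the deepest RNA library, had none, and a count of 0 allows up to 3. Chromatin near Mesp1 changed at 1 of 7 tested peaks, chr7:79797245-79797424, 3655 bp upstream, which rose from 0.640, 1.40, 1.02 and 1.24 CPM to 9.88, 11, 7.73 and 10.1 CPM (log2 change 3.10, SE 0.37, adjusted p = 3.74e-07). The 4 DE libraries were all several times above the EpiSC libraries at this peak, while the transcript was nearly undetected. The peak with the highest mean, chr7:79789284-79789582, did not pass the test (log2 change 0.57, adjusted p = 0.0605).

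**Figure D3:**
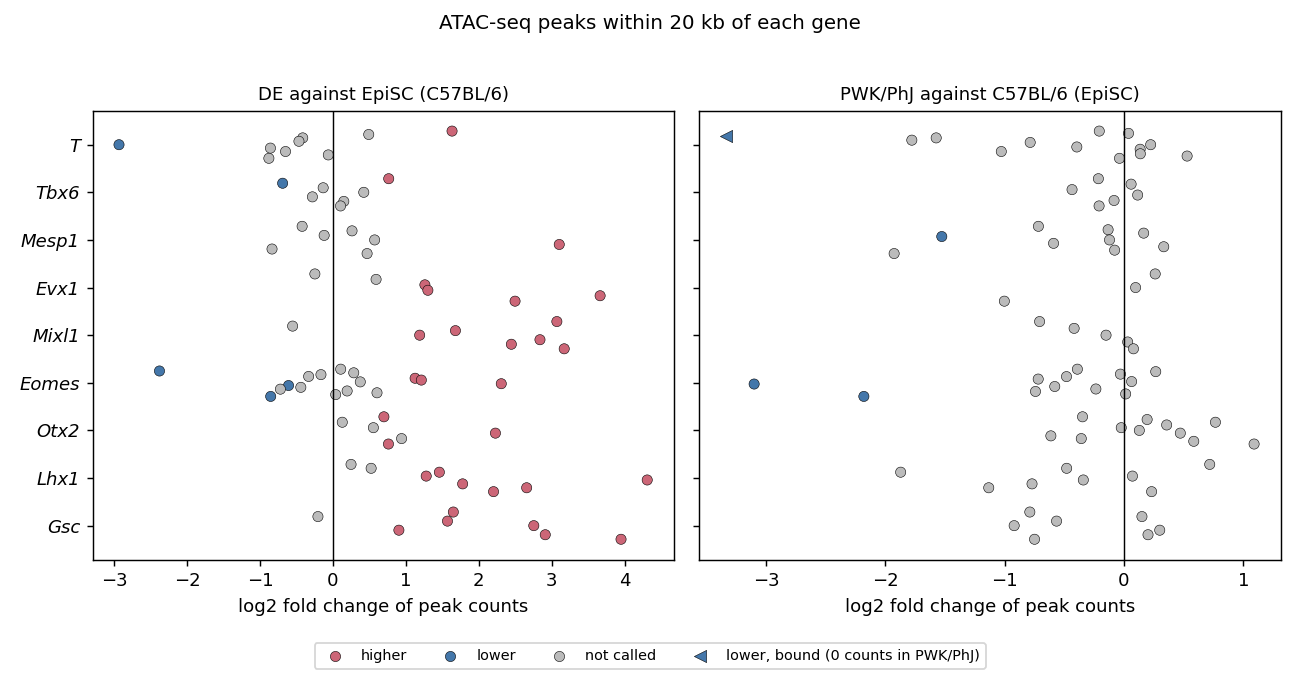
log2 fold change of each tested ATAC-seq peak within 20 kb of the 9 genes, for DE against EpiSC in C57BL/6 (left, 73 peaks) and for PWK/PhJ against C57BL/6 EpiSC (right, 74 peaks), coloured by the call (red higher, blue lower, grey not called). In DE, 31 peaks are higher and 5 lower, the higher ones mostly near Gsc, Lhx1, Mixl1, Evx1 and Otx2, and in PWK/PhJ 4 are lower and none is higher, 1 of them drawn at its bound.

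By gene, the share of tested peaks that were higher in DE ran from 11.1% near T to 85.7% near Gsc and Mixl1, against 32.6% over all peaks. Within 2 kb of the genes, 11 of 22 tested peaks were higher and 1 was lower (edgeR). The words searched for in the 11 RefSeq windows of 8 of the 9 genes, on both strands, were GGATTA, the bicoid-type site of Gsc and Otx2, TAATNNNATTA, a paired-type homeodomain dimer site, GGTGTG, a T-box core, CTTTGA, a TCF/LEF core, and CAGAC, the SMAD box. Of the printed windows, that of T held CTTTGA 234 bases before the start, that of Eomes TAATNNNATTA 111 bases before it and that of Lhx1 CAGAC 60 bases before it. Over all 32851 promoters of the same length these words occurred in 16.0%, 0.487% and 49.59%, GGATTA in 7.06% and GGTGTG in 19.05%. The matches are letters in a window and were not tied to binding.

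Of 19 listed signals that induce the streak, 18 were tested, 6 were higher and 6 lower in DE (edgeR), with a median log2 change of -0.16. This is 33.3% each way, close to the 31.5% higher and 30.6% lower among all genes. Fgf8, a growth factor of the streak, rose from 16.7 ± 9.13 to 808 ± 279 CPM (log2 change 5.59). The Activin receptor gene Acvr2b (4.97), the Nodal ligand itself (1.82) and the Wnt effector Tcf7l1 (1.19) had the next larger log2 changes, and Nodal went from 65.0 ± 21.1 to 229.5 ± 26.6 CPM. Fgf4 fell from 17.8 ± 6.32 to 0.102 ± 0.204 CPM. The Wnt effector Lef1 fell by 2.64, the Nodal co-receptor Tdgf1 by 2.24 and the receptor Acvr1b by 1.95 on the log2 scale.

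Other streak and nascent mesoderm genes gave 5 higher and 8 lower among 21 tested of 29 listed (edgeR, median log2 change -1.95). These shares of 23.8% and 38.1% are not far from the 31.5% and 30.6% of all genes. The summed level of the list was 508 to 1068 CPM in EpiSC and 1344 to 1889 CPM in DE. That rise is against the sign of the median, and the sum includes Fgf8, whose large rise is given above. Besides Fgf8, the Notch ligands Dll1 and Dll3 (log2 changes 5.62 and 3.34) and the Wnt target Sp5 (3.82) rose. Sp8 went from 3.28 ± 2.85 CPM to no counts in the 4 DE libraries, at least 38.1-fold lower against a floor of 3 counts per library, and the list's median is the same with Sp8 at that bound. Nkx1-2, Kdr and Zeb2 fell by 5.43, 5.40 and 4.91 on the log2 scale.

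Organizer and axial mesendoderm genes gave 11 higher and 4 lower among 19 tested of 21 listed (edgeR, median log2 change 1.47), or 57.9% and 21.1% against 31.5% and 30.6% of all genes. The largest rises were those of the endoderm factor Sox17 (log2 change 7.80), the Nodal antagonists Lefty1 (6.62) and Lefty2 (6.23) and the secreted antagonist Cer1 (6.32). The 4 that fell were the ciliogenesis factor Foxj1 (-4.30), the midline signal Shh (-3.46), Gdf3 (-1.74) and the Lhx1 cofactor gene Ldb1 (-0.99). Chrd, a Bmp antagonist of the organizer, was at 46.2 ± 26.6 CPM in EpiSC and 49.9 ± 6.51 CPM in DE and did not pass the test (adjusted p = 0.835). The 3 lists share Fgf8, Wnt3, Gdf3 and other genes, so their counts are not independent. The organizer list also shares Foxa2, Cer1, Hhex and Sox17 with the DE markers used to check cell identity, all of which rose. Its count of higher genes is thus in part that of the DE markers.

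Among EpiSC, the factors varied from library to library of 1 strain. Within the 5 C57BL/6 libraries the highest level was 25.5 times the lowest for Lhx1, 15.5 times for Gsc, 5.66 times for T, 4.16 times for Mixl1, 3.72 times for Eomes and 1.80 times for Otx2. Replicate 1, with the highest T, Lhx1, Mixl1 and Otx2, had the lowest summed feeder markers, 59.6 CPM on the scale of the table with DE. Replicate 51, with the lowest T, Lhx1, Gsc, Mixl1 and Otx2 but the highest Eomes, had the highest feeder sum, 2487 CPM. Replicates 4, 44 and 2 lay between them at 366, 954 and 1027 CPM. Gsc was highest in replicate 44 and Eomes lowest in replicate 4, so the factors did not all follow 1 order. The part of feeder RNA in the spread of the factors was not tested.

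In PWK/PhJ, an inbred line derived from wild mice, none of the 8 tested factors differed from C57BL/6 at an adjusted p of 0.05 by edgeR or by DESeq2, and none had an unadjusted edgeR p below 0.05 (adjusted p 0.151 to 0.882). Of all 14822 genes tested, 26.5% were called, 12% higher and 14.5% lower, and 45.4% of those called were higher in PWK/PhJ, or 56.6% with total library sizes. No factor had libraries that did not overlap, against 32.1% of all genes. Lhx1 was at 45.6, 20.8 and 26.4 CPM in the 3 PWK/PhJ libraries, within the range of 7.41 to 189 CPM in C57BL/6 (log2 difference -1.44, SE 0.80). Gsc was at 3.93, 1.73 and 3.87 CPM in the same order (log2 difference -1.18, SE 0.72), inside the 0.753 to 11.7 CPM of C57BL/6. T was at 148, 135 and 129 CPM, close together and inside the 101 to 574 CPM of C57BL/6 (log2 difference -1.03, SE 0.48), and without C57BL/6 replicate 51 it was called lower (log2 difference -1.24, adjusted p = 0.0492).

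The libraries of the other factors overlapped those of C57BL/6 too, with 1 PWK/PhJ library below the C57BL/6 range for Mixl1 and 1 for Evx1. Eomes was at 119.7, 98.0 and 127 CPM (log2 difference 0.55, SE 0.38), Mixl1 at 7.79, 2.98 and 6.09 CPM (-0.69, SE 0.45) and Otx2 at 140.4, 116 and 135 CPM (-0.13, SE 0.16). Evx1 had 0.400, 0.0737 and 0.273 CPM (-1.56, SE 0.74) and Tbx6 0.832, 0.847 and 1.02 CPM (-0.07, SE 0.28), and Mesp1 had no counts. At these standard errors, log2 differences of over 1 in size for Lhx1, Gsc, Evx1 and T did not pass the test. The median over the 8 factors was -0.86, against -0.01 over all genes. Feeder markers summed to 1994 to 2777 CPM in PWK/PhJ against 62.4 to 2533 CPM in C57BL/6 in the same table, with 0 of 10 called by edgeR and 1 at an unadjusted p below 0.05. The 10 DE markers, of which none is among the 9 factors, summed to 117 to 192 CPM in PWK/PhJ and 439 to 1332 CPM in C57BL/6, without overlap. Trh, the 1 of them called, went from 483 to 34.7 CPM on average, and the list median was -0.97. The part of feeder or DE-marker RNA in the result was not tested.

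The B6.129 F1 libraries gave the same count of 0 called factors out of 8 (edgeR and DESeq2, adjusted p by edgeR 0.199 to 0.989), where 2.84% of all genes were called, 1.34% higher and 1.5% lower. That background rests on single libraries, since no gene was called without the F1 library that has no number and 1952 were called without C57BL/6 replicate 1. T was at 115, 187 and 92.8 CPM in F1 replicates 4, 9 and the one without a number, and with a log2 difference of -1.14 (SE 0.48) it was the 1 factor with an unadjusted p below 0.05 (0.0474). Mixl1 was at 10.0, 18.7 and 16.3 CPM, Gsc at 3.86, 13.4 and 10.9 CPM and Lhx1 at 44.6, 106 and 103 CPM, and all of these ranges overlapped those of C57BL/6. The log2 differences were 0.68, 0.34 and -0.03. Eomes, Otx2, Evx1 and Tbx6 differed by -0.42, 0.11, 0.33 and 0.03, with a median over the 8 factors of 0.07. Feeder markers summed to 130 to 197 CPM in the F1 libraries against 62.4 to 2533 CPM in C57BL/6. By edgeR 0 of 10 were called and 9 had an unadjusted p below 0.05, with a list median of -2.65. The part of feeder RNA in the differences between F1 and C57BL/6 was not tested.

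**Figure D4:**
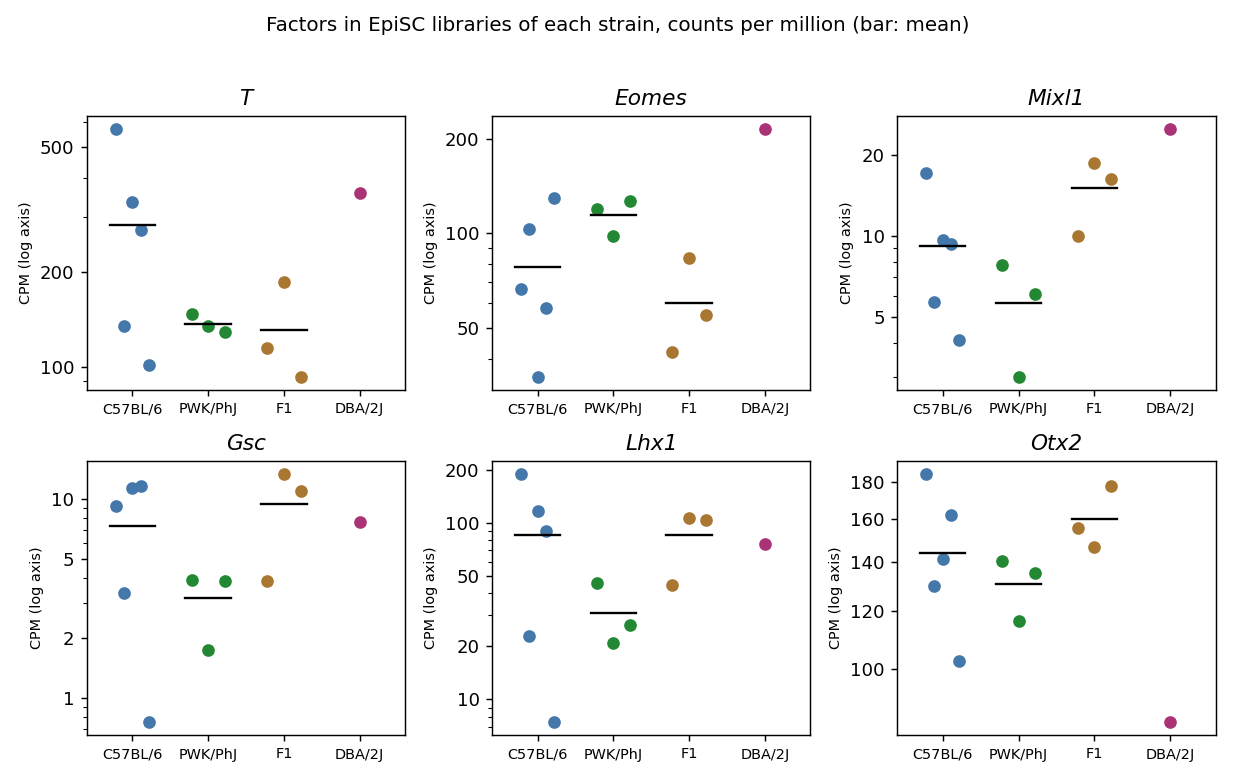
CPM (log axes) of 6 factors in each EpiSC RNA-seq library of C57BL/6 (5), PWK/PhJ (3), B6.129 F1 (3) and DBA/2J (1), with bars at the means of groups with replicates. PWK/PhJ and F1 overlap C57BL/6 for every factor drawn, and the DBA/2J library is above all C57BL/6 libraries for Eomes and Mixl1 and below them for Otx2.

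In PWK/PhJ, where 26.5% of all genes were called, 16.7% of the tested signals, 4.8% of the streak genes and 25.0% of the organizer genes were called. Here Wnt3 was the 1 gene called among 21 tested streak genes and was higher by 0.99 on the log2 scale, and among 18 tested signals Wnt3 was higher and Gdf3 (-2.60) and Tdgf1 (-1.21) were lower. Of 20 organizer genes tested, 1 was higher (Lefty2, 1.69) and 4 were lower, among them Noto (-4.22) and Nog (-3.64), both made in the node and notochord. The list medians were -0.05 for signals, 0.16 for streak genes and -0.89 for organizer genes. In F1, Ctnnb1 was lower by a log2 difference of -0.32, 1 of 18 signals tested, and none of the 21 streak and 20 organizer genes was called by edgeR, with 5 and 3 at an unadjusted p below 0.05.

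At the DBA/2J library, which has no replicate, Eomes was at 215 CPM and Mixl1 at 25 CPM, above the highest C57BL/6 libraries at 129.9 and 17.1 CPM. The log2 ratios to the C57BL/6 means were 1.45 for both. Otx2, at 84.7 CPM, was below the lowest C57BL/6 library at 103 CPM (log2 ratio -0.77), while T at 358 CPM, Lhx1 at 75.4 CPM and Gsc at 7.62 CPM were inside the ranges. Past a log2 ratio of 1 in size were thus 2 of the 6 factors with a mean of at least 1 CPM, against 8.29% of all genes at that level, and outside the range were 3, against 41.3%. Feeder markers summed to 1361 CPM in this library.

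ATAC-seq counts near the factors differed at few places between PWK/PhJ and C57BL/6 EpiSC. The build was mm10, and whether strain-specific genomes were used is not given. Sequence differences that change read mapping and differences in open chromatin cannot be told apart at these peaks, and the part of mapping was not tested. Of 87 nearby peaks, 74 were tested, none was higher and 4 were lower, where 5.11% of all 137667 peaks were called, 1.42% higher and 3.68% lower. Libraries did not overlap at 18 of the 74 peaks, against 26.3% of all peaks, and the median was -0.18 against 0.04.

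The peak with the smallest p was chr9:118488381-118488569, 2249 bp downstream of Eomes, with 10.2, 10.0, 13.3 and 15.2 CPM in C57BL/6 replicates 1, 4, 44 and 51 and 1.44 and 1.37 CPM in PWK/PhJ (log2 difference -3.10, SE 0.39, adjusted p = 0.000302). A further peak near Eomes, chr9:118506059-118506242, which is also near Golga4, was at 9.85 ± 1.17 CPM (SD, n = 4) against 1.62 and 2.62 CPM (log2 difference -2.18, adjusted p = 0.00318). Near T, chr17:8419340-8419463 had 3.34, 6.81, 5.64 and 2.01 CPM in C57BL/6 and no counts in either PWK/PhJ library, at least 10.1-fold lower against a floor of 3 counts per library (adjusted p = 0.00223). Near Mesp1, chr7:79789294-79789539 had 7.47, 6.28, 9.23 and 5.42 CPM against 2.34 and 2.50 CPM (log2 difference -1.53, SE 0.40, adjusted p = 0.0457), and dropping any one of 5 of the 6 libraries ended this call (adjusted p 0.0494 to 0.148). The transcripts of Eomes and T next to the first 3 peaks did not pass the test between the strains. The DBA/2J library had 13.4 CPM at the first Eomes peak, within the C57BL/6 range, and 7.92 CPM at the peak near T, above it.

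The start peaks of T, Eomes and Lhx1 were alike in size but are not shown to be equal. The peak over the T promoter was at 7.79, 8.19, 5.13 and 6.19 CPM in C57BL/6 and 6.12 and 4.44 CPM in PWK/PhJ (log2 difference -0.40, SE 0.36). That over the Eomes start differed by -0.03 (SE 0.32) and that over the Lhx1 start by -0.34 (SE 0.24). The peak at an outer Otx2 start, chr14:48667517-48667592, had few counts. It was at 1.43, 3.19, 0 and 2.63 CPM in C57BL/6 and at 1.62 and 0.911 CPM in PWK/PhJ. With 1 library left out its log2 difference ran from -1.10 to -0.19, and none of these fits called it (edgeR, adjusted p 0.528 to 0.977). The smallest p near Gsc, Mixl1, Otx2, Evx1, Tbx6 and Lhx1 gave log2 differences of -0.56, -0.71, 1.09, -1.0, -0.21 and -1.87, and none passed the test (adjusted p 0.136 to 0.619).

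In the DBA/2J library, 8 of 80 nearby peaks with a mean of at least 1 CPM passed a log2 ratio of 1 in size, 4 higher and 4 lower, against 23.9% of all such peaks. The 4 higher were 2 near T and 2 near Otx2 (log2 ratios 1.31, 1.43, 1.16 and 1.41), and the 4 lower all lay near Mesp1 (-1.29, -2.39, -2.40 and -1.18). These 4 had few counts, at 0.466, 0.311, 0.311 and 1.40 CPM, the last inside the C57BL/6 range of 1.22 to 4.90 CPM. Read mapping and open chromatin cannot be told apart for DBA/2J either, and the part of mapping was not tested. At the higher peak inside Otx2, chr14:48666452-48666620, named after its values were seen, the library had 9.32 CPM against 3.02 to 5.78 CPM in C57BL/6. The median over the 80 peaks was -0.0026, and 28 were outside the C57BL/6 range, against 46.3% of all peaks.

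Over the 12 EpiSC libraries, pairs of the 6 factors with a mean of at least 1 CPM were compared on the log2(CPM + 1) scale, 15 pairs in all. The libraries share scaling and strain, and 5 pairs passed an adjusted p of 0.05 in a two-sided permutation test of 100000 resamples. The resamples shuffled all 12 libraries without regard to strain. Their p-values therefore do not separate differences between strains from variation among libraries of 1 strain. Gsc and Lhx1 were the most alike (Pearson r = 0.94, permutation p = 1e-05, the smallest it can give, adjusted p = 0.00015, Spearman rho = 0.89). Without the 2 libraries farthest from the median of Gsc, r was 0.87. Here and below, these 2 libraries were picked by 1 gene of the pair only. Mixl1 followed Lhx1 (r = 0.82, adjusted permutation p = 0.00915, rho = 0.78) and Gsc (r = 0.80, adjusted permutation p = 0.00945, rho = 0.71). Without the 2 libraries farthest from the median of Mixl1, r was 0.89 and 0.84. In the 7 libraries of the other strains these 3 pairs had r = 0.96, 0.92 and 0.89. Those libraries are of PWK/PhJ, F1 and DBA/2J, so differences between strains enter these r as well. The 5 C57BL/6 libraries are too few for a correlation of their own.

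Eomes and Otx2 went in opposite directions (r = -0.75, adjusted permutation p = 0.0188, rho = -0.77). Without the 2 libraries farthest from the median of Eomes r was -0.74, and it was -0.84 in the other strains. T and Lhx1 gave r = 0.68 (adjusted permutation p = 0.0440), but rho was 0.61 with an adjusted permutation p of 0.0843, and r was 0.23 in the 7 libraries of the other strains. Whether it differs between strains was not tested. The genes most like each factor, out of 12033 with a mean of at least 1 CPM, were Gata6 (r = 0.96), Lhx1 (0.94) and A4galt (0.94) for Gsc, and Gata6 (0.98), Pkd1l1 (0.97) and Rgs8 (0.95) for Lhx1. For T they were Ptch1 (0.94), Hmgb3 (0.93) and Adcy5 (0.91), for Eomes Mfap1a (0.96), Urm1 (0.95) and Axin2 (0.95). For Mixl1 they were Arid3c (0.93), Dapk2 (0.92) and Pld4 (0.91), and for Otx2 Synrg (0.94), Dhcr7 (0.93) and Aldh5a1 (0.92). These are descriptions over 12 libraries, ranked out of many genes.

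**Figure D5:**
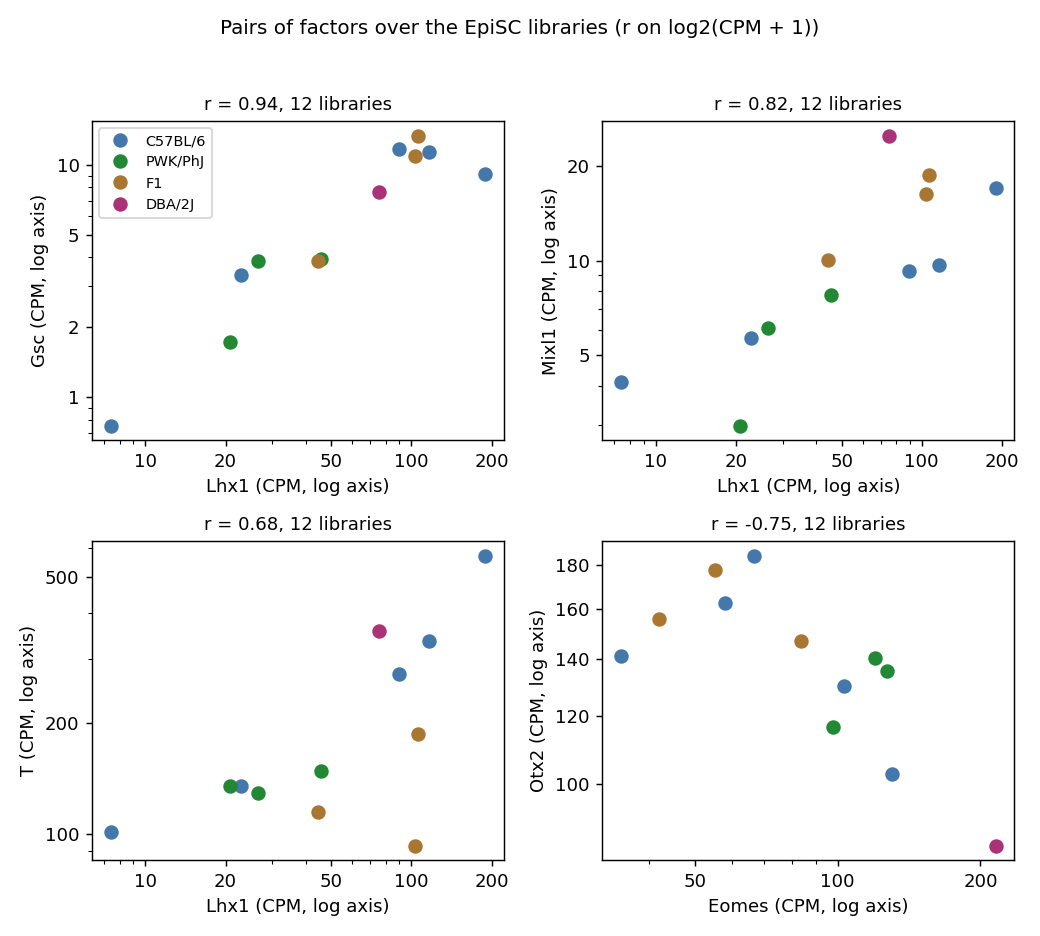
Levels of 4 pairs of factors in the 12 EpiSC RNA-seq libraries (CPM, log axes), 1 point per library, coloured by strain, with Pearson r of log2(CPM + 1) above each plot. Gsc rises with Lhx1 from the lowest C57BL/6 library, at 0.753 and 7.41 CPM, and Otx2 is lowest in the DBA/2J library, where Eomes is highest.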

How the data were processed

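Gene and peak tables hold raw counts as deposited, per gene identifier and per peak. Per the submitters' processing notes, the tools were Salmon, featureCounts and DESeq2 for RNA-seq and fastp, Bowtie2, MACS2, featureCounts and DESeq2 for ATAC-seq, with build mm10. Their versions, the annotation, the use of strand in counting and whether strain-specific genomes were used are not given in the sources used here. Per the file headers, each peak table has 1 set of peaks for all its libraries.

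Samples were grouped from the labels, and 27 of 30 were used. The 3 PWK/PhJ DE samples are not analysed here, and 17 columns of other series were not used. In RNA-seq, 1 PWK/PhJ and 1 B6.129 F1 column have no replicate number and were placed by strain. The same holds for 1 of the 2 PWK/PhJ columns in ATAC-seq. The smallest chi-square per feature between replicates was 10.2 over 22 RNA pairs and 2.87 over 13 ATAC pairs, so no library was counted as a copy of another. Symbols were matched for 29270 of 29555 identifiers. Gene ends came from the RefSeq table of GRCm38.p6, and promoter sequences from RefSeq, which gave 11 windows for 8 of the 9 genes. Mixl1 is named only.

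Counts were tested with edgeR 4.0.16 in R 4.3.3 (TMM, filterByExpr, robust quasi-likelihood fit, Benjamini-Hochberg over each table, call at an adjusted p of 0.05), and the fit was tested on simulated data. Levels are CPM (counts relative to the TMM-scaled library size) set within each table, so C57BL/6 values differ a little between the 2 gene tables. DE was compared with C57BL/6 EpiSC, and PWK/PhJ and F1 with C57BL/6 in 1 fit of the 3 EpiSC groups. The DBA/2J library has no replicate and was not tested. All 9 genes are named. The named peaks are those with the smallest p, those with the highest mean and those over a promoter window, others being stated. From each list up to 4 called genes each way are named, or 2 between strains, and for each factor the 3 genes most like it. Alternatives were RLE or total scaling, DESeq2 1.42.0, no filter or at least 10 counts in every library, each library left out, the replicate number as a block, fits of 2 groups, windows of 2 and 50 kb and a pseudocount of 0.1 in place of 1 CPM. Members, lists and tests were chosen with earlier results of these data known.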

Additional observations from a re-analysis of the deposited data

Results flagged for a closer look

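Over the 9 factors, 18 groups of transcript values and 84 groups of values at nearby peaks that were named or called, all C57BL/6 EpiSC or DE, were screened for a library far from the rest with Dixon's ratio, the gap to the nearest library over the whole range. None of the 18 transcript groups and 3 of the 84 peak groups passed its critical value of 0.829 for 4 libraries, and chance passes about 1 in 20. At chr12:104473630-104473739 near Gsc, C57BL/6 EpiSC replicate 4 had 2.90 CPM and the next library 0.765 CPM (ratio 0.882). At chr6:52313467-52313571, over the start of Evx1, EpiSC replicate 1 had 2.08 CPM and the next 1.10 CPM (ratio 0.850). At chr14:48654879-48655237 near Otx2, DE replicate 4 had 18.6 CPM and the next 15.9 CPM (ratio 0.835). The other nearby peaks and the other strains were not screened.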

How the results depend on the processing

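Of 844 values of single genes, peaks and pairs under alternatives, 789 kept their direction and side of the threshold, 34 lost it, 2 gained it and 19 changed sign. Gsc, Lhx1, Otx2, Mixl1, Eomes and T kept their calls between EpiSC and DE in every alternative run. The 6 higher factors were 5 to 6 and the 2 lower factors 1 to 2 when 1 library was left out. The lower factors were 1 without a filter and with at least 10 counts in every library (where Evx1 and Tbx6 are not tested). They were also 1 in the unblocked fit of libraries with a number in both groups, which leaves out EpiSC replicate 1. The same held with DE replicates 2 and 44 alone and with DE replicates 4 and 51 alone, these 2 chosen after seeing the data. Each time Tbx6 was the one lost (adjusted p = 0.0926 without a filter). In PWK/PhJ the lower factors were 0 to 1 when 1 library was left out. RLE scaling left 4 of 5 correlated pairs.

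Nearby peaks in DE were 25 to 31 higher and 4 to 11 lower when 1 library was left out. Total library sizes gave 10 lower, at least 10 counts in every library 17 higher, a window of 2 kb 11 higher and 1 lower, and 50 kb 47 higher and 16 lower. In PWK/PhJ the lower peaks were 3 to 4 when 1 library was left out, 0 with at least 10 counts in every library, 0 within 2 kb and 7 within 50 kb. Under that filter the Mesp1 peak loses its call (adjusted p = 0.0576), and the others have under 10 counts in a PWK/PhJ library. Peaks with few counts limit what these depths can show.

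The values that changed sign were all uncalled. With total library sizes they were the Tbx6 peak chr7:126799048-126799383 (-0.063) and the Otx2 peak chr14:48654879-48655237 (-0.092) in DE, and the Eomes start peak in PWK/PhJ (0.060), which was 0.015 with at least 10 counts in every library. With 1 library left out the Otx2 peak ran from -0.071 to 0.20, the Eomes start peak in PWK/PhJ from -0.16 to 0.10 and Tbx6 in PWK/PhJ from -0.17 to 0.043. In F1, Tbx6 ran from -0.056 to 0.14, Lhx1 from -0.33 to 0.52 and Gsc from -0.016 to 0.72. The causes were not tested.

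In RNA-seq, samples with the same replicate number in EpiSC and DE deviated together with correlations of 0.066 to 0.187, each higher than with any other number. In ATAC-seq these correlations were -0.013 to 0.047, and none was higher than the highest with another number. The labels do not say what a number marks, so the main fits were unpaired. Whether the RNA-seq samples are paired is not settled by these values. Fits with the replicate number as a block held only libraries with a number in both groups. They left out EpiSC replicate 1, and in ATAC-seq DE replicate 2 as well. With the block, 5 factors were higher and 1 lower, and Lhx1 had a log2 change of 5.25. The calls of Evx1 and Tbx6 were lost (edgeR, adjusted p = 0.0992 and 0.160). Effects of the block and of the libraries left out are mixed in these values. With the block, nearby peaks were 26 higher and 3 lower, and the Eomes start peak changed by -0.015. No paired analysis was possible between strains because their groups share fewer than 2 numbers.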
